A study of Mus musculus with 19 samples.

Results

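The comparison of embryonic day 18 (E18) with embryonic day 16 (E16) in the mouse sciatic nerve rests on 7 of the 19 arrays of a series on glial development, 3 at E18 and 4 at E16, taken by the stage in their labels. All 7 samples were cells of transgenic embryos in which a glial promoter, on in crest stem cells and afterwards in glia, drives green fluorescent protein. The nerve was dissected and the fluorescent cells were collected by flow cytometry. The labels call the E16 cells early Schwann cells and the E18 cells Schwann cells. The reporter decides which cells enter a sample, so no other nerve cell type is represented by design. Strain and sex are not given, nor whether arrays of a stage came from separate embryos or litters, so the p-values speak only of the spread among these samples, which may be technical.

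Schwann cells ensheath the axons of peripheral nerves. Late in gestation, immature Schwann cells lay down a basal lamina, begin to sort large axons out of bundles and switch on transcription factors that lead to myelination. Myelin itself is made mostly after birth.

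The 4 E16 arrays formed 2 pairs. Replicates 1 and 2 both carry lot number 1, and replicates 3 and 4 carry lots 3 and 4. The E18 arrays carry lots 1, 2 and 3. What a lot is (animals, extraction or arrays) is not stated. Rank correlations over all probe sets were 0.963 between E16 replicates 1 and 2 and 0.944 between replicates 3 and 4, but 0.896 to 0.91 across the pairs. The E18 arrays correlated with each other at 0.937 to 0.978, with E16 replicates 3 and 4 at 0.901 to 0.968 and with E16 replicates 1 and 2 at 0.887 to 0.928. The GAPDH control probe sets gave a 3'/5' signal ratio, which goes up as RNA gets shorter, of 5.80, 9.12, 4.26 and 3.84 in E16 replicates 1 to 4 and 4.83, 4.11 and 4.18 in E18. The stage means were 5.76 ± 2.40 (SD, n = 4) and 4.37 ± 0.39 (SD, n = 3), a difference of -1.38 (exact permutation test, 2-sided p = 0.46, smallest possible 0.029). Because of the pairs, each main change below is also given against each E16 pair, with the same 3 E18 arrays on one side.

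Genes that mark the Schwann lineage were checked on the arrays. Erbb3, the neuregulin receptor of the Schwann lineage, lay between 2552 and 5097 on the 7 arrays, and Pmp22, a membrane protein of peripheral myelin, between 2999 and 5198 (expression index, a linear intensity). Sox10, the transcription factor that maintains the lineage, lay between 727 and 2990. S100b, a calcium-binding protein often used to mark Schwann cells, was at or near the floor of 68.5 on all 7 arrays (22.6 to 78.9), and Cnp was low (67.9 to 104). The summed level of 7 measured Schwann lineage markers was 8410 to 13671 at E16 and 9999 to 12556 at E18. For 14 fibroblast markers it was 28183 to 35315 and 27682 to 32516, for 10 endothelial markers 1969 to 2528 and 1813 to 2533, and for 13 macrophage markers 1946 to 2419 and 2127 to 2640. None of these ranges separated the stages. Collagens carried most of the fibroblast sum, whereas Dcn, a proteoglycan of fibroblasts, was 3395 on E16 replicate 2 and 115 to 581 on the other 6 arrays. Of the macrophage markers C1qc and Mrc1 were below the floor on all 7 arrays, as were Nefm among 11 neuron markers and Hba-x among 9 erythroid markers.

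Few probe sets separated E18 from E16. The matrix proteoglycan gene Vcan and the synuclein gene Sncg had lower transcript levels at E18. These calls held in at least 17 of 19 alternative ways of processing. The secreted protein gene Ccdc80 was lower and Padi2, an enzyme that turns arginine residues of proteins into citrulline, was higher. Those 2 calls are less secure: they held in 7 and 6 of 19, and both were lost without any one E18 array. In the sorted population a lower level can come from fewer expressing cells or from less RNA per cell, which cannot be told apart. Of 10414 probe sets tested, 8 were called (limma, Benjamini-Hochberg adjusted p under 0.05), which is 0.0768%. One was higher (0.0096%) and 7 were lower at E18 (0.0672%). At an unadjusted p under 0.05 there were 840 (8.07%), 305 higher (2.93%) and 535 lower (5.14%). On 331 probe sets (3.18%) all E18 arrays exceeded all E16 arrays, and on 472 (4.53%) all were below them. All 8 called probe sets are among those without overlap. The median SE of the log2 change was 0.23, and the smallest change called was 0.89 on the log2 scale. A change of over 1 was seen on 177 probe sets, of which 7 were called. The count moved with the fit: 2 were called with only the 7 arrays of both stages, 3 with a higher floor, and 1153 (532 higher, 621 lower) when arrays were weighted by their fit to the model, where E18 replicate 2 had a weight of 7.82 against 0.382 to 1.27 for the other 6.

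**Figure D1:**
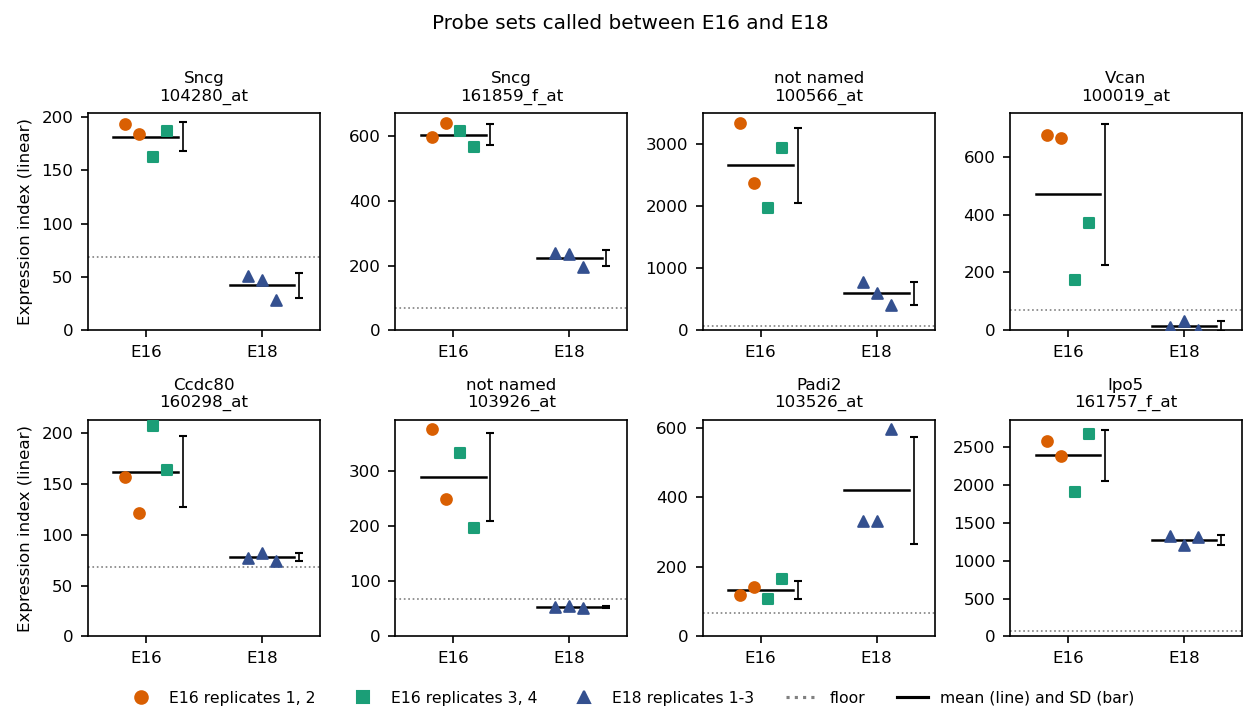
Expression index (linear) on each E16 and E18 array for the 8 called probe sets; points are arrays, coloured by E16 pair or stage, the line is the stage mean, the bar its SD and the dotted line the floor of 68.5. In each panel the 3 E18 arrays lie on one side of all 4 E16 arrays; Padi2 is the one that rose.

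Vcan encodes versican, a large chondroitin sulfate proteoglycan of embryonic matrix. Its probe set (100019_at) read 677, 667, 173 and 370 in E16 replicates 1 to 4 and 11.8, 32.8 and 0 in E18 replicates 1 to 3. Every E18 array was under the floor and every E16 array above it, with replicates 1 and 2 above replicates 3 and 4. The fall was at least 6.02-fold (log2 change -2.59, SE 0.34, adjusted p = 0.0022, limma), since all E18 values were set to the floor. Against E16 replicates 1 and 2 the log2 change was -3.29 (adjusted p = 9.3e-06), and against replicates 3 and 4 it was -1.89 (adjusted p = 0.0056). Within lot 1 it was -3.29 and within lot 3 it was -1.34. The index had been 5067 ± 719 at E12 and 3447 ± 460 at E14 (SD, n = 3 each), and it was 0 on all 3 arrays at P0, the day of birth. The call was lost with a higher floor and with only the 7 arrays (highest adjusted p over the alternatives 0.47).

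Sncg encodes gamma-synuclein, a small soluble protein abundant in peripheral neurons. Both of its probe sets fell. On the first (161859_f_at) the index was 597, 643, 617 and 567 at E16 and 239, 235 and 195 at E18, a fall of 2.73-fold (log2 change -1.45, SE 0.17, adjusted p = 0.0012, limma). The means were 606 ± 32.2 (SD, n = 4) and 223 ± 24 (SD, n = 3). On the second (104280_at) it was 194, 184, 162 and 187 at E16 and 50.5, 47.3 and 28.1 at E18, all under the floor, a fall of at least 2.64-fold (log2 change -1.40, SE 0.11, adjusted p = 6.9e-06). The E16 pairs did not part here: the log2 changes were -1.48 and -1.41 against the pairs on the first probe set and -1.46 and -1.34 on the second. The first was called in all 19 alternatives run, and the second in 18. On the second, all E9.5, E12 and E18 arrays were under the floor and entered the pooled SE without spread. Its SE and p therefore rest in part on the floor. With the floor at the 10th percentile its adjusted p was 0.00055, and at the 40th it was 0.058 (limma). Over the stages the first probe set climbed from 121 ± 4.39 at E9.5 and 152 ± 20.7 at E12 to 499 ± 11.9 at E14, was highest at E16 and was 337 ± 101 at P0 (SD, n = 3 each). Of 11 neuron markers 1 had an unadjusted p under 0.05 (limma), beside 8.17% of all genes. Their median log2 change was -0.02, with 3 higher and 8 lower. The summed level of these markers was 2417 to 3320 at E16 and 2379 to 2998 at E18. The part of neuronal RNA in the Sncg change was not tested.

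Ccdc80, which encodes a secreted protein that binds extracellular matrix, read 157, 122, 207 and 164 at E16 and 77.0, 82.5 and 74.6 at E18 (160298_at). The E18 arrays agree closely and lie just above the floor. It fell 2.05-fold (log2 change -1.03, SE 0.17, adjusted p = 0.038, limma), by -0.83 against E16 replicates 1 and 2 (adjusted p = 0.046) and -1.24 against replicates 3 and 4 (adjusted p = 0.017). E16 was its peak, after 62.5 ± 9.17 at E14, and P0 was 68.4 ± 37.2 (SD, n = 3 each). The call held in 7 of 19 alternatives, with adjusted p from 0.00075 to 0.48, and was lost without any one E18 array and with the lot as a block (adjusted p = 0.091). Both other floors lost it as well (limma). With the 10th percentile floor the log2 change was -1.03 (adjusted p = 0.34), and with the 40th it was -0.33 (adjusted p = 0.48). All E9.5 and E12 arrays were under the main floor and entered the pooled SE without spread, so the SE may be too small.

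Padi2, peptidylarginine deiminase type 2, was the one probe set that rose (103526_at). It read 118.5, 142, 109 and 164 at E16 and 330.5, 332 and 596.5 at E18, so that E18 replicate 3 stood above the other E18 arrays. The rise was 3.06-fold, from 133 ± 24.8 (SD, n = 4) to 420 ± 153 (SD, n = 3; log2 change 1.61, SE 0.28, adjusted p = 0.038, limma). It was 1.64 against E16 replicates 1 and 2 (adjusted p = 0.033) and 1.59 against replicates 3 and 4, where it missed the threshold (adjusted p = 0.22). Within lots 1 and 3 it was 1.35 and 2.45. The P0 arrays averaged 338 ± 127 and the E14 arrays 208 ± 28.3 (SD, n = 3 each). The call held in 6 of 19 alternatives, with adjusted p from 0.0017 to 0.37, and was lost without any one E18 array, without E16 replicate 1, 2 or 3, and with the lot as a block (adjusted p = 0.094).

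Ipo5, an importin that carries proteins into the nucleus, fell on 1 of its 2 probe sets. That one (161757_f_at) read 2582, 2385, 1912 and 2680 at E16 and 1326, 1204 and 1308 at E18, a 1.85-fold fall (log2 change -0.89, SE 0.16, adjusted p = 0.042, limma). The change was -0.96 against E16 replicates 1 and 2 (adjusted p = 0.029) and -0.82 against replicates 3 and 4, where it missed the threshold (adjusted p = 0.24). The other (93070_at) read 1101, 860, 2356 and 2228 at E16 and 1871, 1559 and 1057 at E18, with overlapping stages and a log2 change of -0.04. Since the probe sets disagree, the change of the gene is uncertain, and the call held in 4 of 19 alternatives and was lost with the lot as a block (adjusted p = 0.17). Of the 2 called probe sets that carry no single gene name, 100566_at, annotated with 2 symbols, read 1959 to 3323 at E16 and 400 to 770 at E18 and fell 4.55-fold (log2 change -2.18, SE 0.28, adjusted p = 0.0022), by -2.30 and -2.07 against the pairs. It was called in 18 of 19 alternatives. The other, 103926_at, fell at least 4.09-fold, from 197 to 376 at E16 to below the floor at E18 (adjusted p = 0.038). Its log2 change was -2.16 against E16 replicates 1 and 2 and -1.90 against replicates 3 and 4, where it missed the threshold (adjusted p = 0.24). The call held in 6 of 19 alternatives (highest adjusted p 0.37) and was lost without any one E18 array and with the lot as a block.

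The promoter windows of Vcan, Sncg and Padi2 are shown because these genes hold the strongest named falls and the one rise. Each is 300 bases, from 250 before the annotated start to 50 after it, 5′ to 3′ on the gene's strand (RefSeq, GRCm38.p6), at chr13:89742463-89742762 (minus strand), chr14:34374620-34374919 (minus) and chr4:140906110-140906409 (plus). Capitals mark a GC box (GGGCGG) or a CCAAT box (CCAAT) on either strand; the motifs do not overlap here.
Vcan: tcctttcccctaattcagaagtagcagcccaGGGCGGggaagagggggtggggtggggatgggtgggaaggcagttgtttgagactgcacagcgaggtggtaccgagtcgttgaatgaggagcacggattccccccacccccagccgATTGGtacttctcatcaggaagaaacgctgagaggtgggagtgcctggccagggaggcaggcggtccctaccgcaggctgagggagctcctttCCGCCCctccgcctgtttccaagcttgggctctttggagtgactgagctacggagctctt
Sncg: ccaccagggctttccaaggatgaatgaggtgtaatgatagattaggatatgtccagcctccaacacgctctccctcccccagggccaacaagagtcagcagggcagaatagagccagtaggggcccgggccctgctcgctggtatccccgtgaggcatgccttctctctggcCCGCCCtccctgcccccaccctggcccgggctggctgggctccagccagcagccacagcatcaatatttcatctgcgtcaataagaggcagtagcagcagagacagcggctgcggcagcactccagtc
Padi2: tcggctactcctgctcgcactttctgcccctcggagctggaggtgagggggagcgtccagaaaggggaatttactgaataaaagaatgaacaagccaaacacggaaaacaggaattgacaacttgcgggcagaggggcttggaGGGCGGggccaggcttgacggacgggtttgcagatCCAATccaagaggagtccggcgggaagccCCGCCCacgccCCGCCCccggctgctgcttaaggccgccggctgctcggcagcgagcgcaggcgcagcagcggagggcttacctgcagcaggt
The Vcan window has 2 GC boxes and 1 CCAAT box, the Sncg window 1 GC box and the Padi2 window 3 GC boxes and 1 CCAAT box. A TATAAA motif was found in none of them. Of 32851 promoter windows of this length, 35.7% hold a GC box, 37.4% a CCAAT box and 13.6% TATAAA on either strand. These are matches of letters only.

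Against both E16 pairs, 5 probe sets (0.048%) were called in the same direction, and all 5 fell: Vcan, both of Sncg, Ccdc80 and 100566_at. The pairs gave very different counts. Against replicates 1 and 2, 146 probe sets were called (1.4%), 66 higher (0.634%) and 80 lower (0.768%). Against replicates 3 and 4 there were 8 (0.0768%), 0 higher and 8 lower. The E18 arrays are shared by both contrasts. The median absolute log2 change was 0.26 against replicates 1 and 2, 0.19 against replicates 3 and 4, and 0.32 between the E16 pairs themselves. By this measure the pairs lay farther from each other than either did from E18. The contrast between pairs sets 2 arrays against 2 and those with E18 set 3 against 2, so noise alone makes the former larger. By rank correlation E18 replicate 3 lay farther from E16 replicate 1 (0.887) than any arrays across the pairs did (0.896 at lowest). Of the 146, 91 changed against replicates 3 and 4 by less than 0.25 times their change against replicates 1 and 2, and 21 changed in the opposite direction. The 146 were chosen for their change against replicates 1 and 2. A smaller change against the other pair is therefore partly built into the choice, and the same counts over all probe sets are not given. With the GAPDH signal as a covariate, 4 were called against replicates 1 and 2, and without 1 E18 array 11 to 19 were. The GAPDH signal and the lot both differ between the pairs. The part of the lot in the pair difference was not tested.

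**Figure D2:**
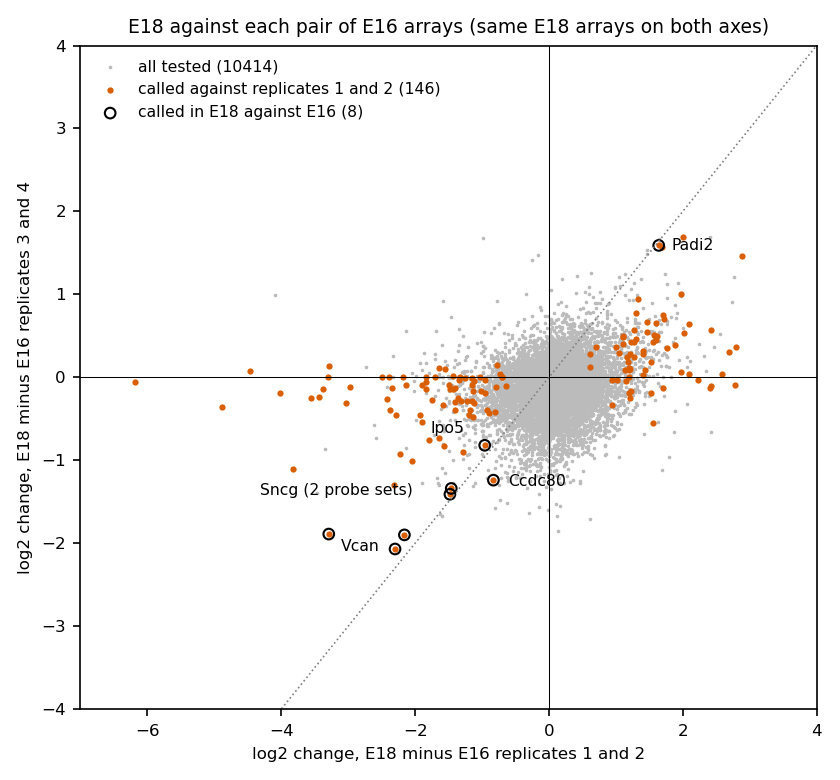
Log2 change of E18 against E16 replicates 1 and 2 (x axis) and against E16 replicates 3 and 4 (y axis) for 10414 probe sets; orange points are the 146 called against replicates 1 and 2, black circles the 8 called in E18 against E16, and the dotted line marks equal change. Most orange points lie near y = 0, while the circled ones lie away from both axes. Both sets were chosen by these same changes, so their positions follow in part from the choice.

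Between the E16 pairs 11 probe sets differed (0.106%), a count that was 2 with the GAPDH covariate and 442 with only the 7 arrays. Mknk2, a kinase downstream of MAP kinases, read 0 and 9.95 in E16 replicates 1 and 2 and 368 and 427 in replicates 3 and 4, beside 350 to 463 at E18 (92473_at). With the low arrays set to the floor, replicates 3 and 4 were higher by 2.53 on the log2 scale (adjusted p = 0.00023, limma). A second probe set of Mknk2 went the other way, with 614.5 and 565 against 266 and 431.5. Its log2 difference of -0.80 missed the threshold (adjusted p = 0.16, limma). Frmd6, a regulator of the Hippo pathway, read 64.4 and 110 against 327 and 421, with 222 to 306 at E18. Slu7, a splicing factor, read 83.3 and 104 against 214 and 237, with 162.8 to 193 at E18. In the opposite direction Gpr132, a receptor coupled to G proteins, read 2016 and 2221 against 817 and 780, with 666 to 889 at E18. Tes, a focal adhesion protein, read 444 and 217 against 40.6 and 30.9 on one probe set (101551_s_at), with all E18 arrays below the floor, while its other probe set was lower in replicates 1 and 2 (308 and 463 against 758 and 729). Cttn, the actin regulator cortactin, was above the floor in E16 replicates 3 and 4 (162.5 and 107) and below it in the other 5 arrays, so that it was called against replicates 3 and 4 alone, and its brighter probe set did not part the pairs (log2 difference 0.28, adjusted p = 0.59). A gene entered here only if E18 was called against 1 pair alone. The nearness of E18 to the other pair is therefore part of the choice and no result. That pair was replicates 3 and 4 on the first 5 of these and replicates 1 and 2 on Cttn.

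Beyond the called genes, 4 rises and 1 fall come next when changes are ranked by the smaller of the pair changes, and none of the 5 passes the test. Csrp2, a LIM domain protein, read 118, 136, 139 and 177 at E16 and 618, 414 and 507.5 at E18 (log2 change 1.84, SE 0.38, adjusted p = 0.17), and 1460 ± 1295 at P0 (SD, n = 3). The stages do not overlap, and the pair changes were 2.00 and 1.69. Hmga2, an architectural chromatin protein of embryonic cells, read 2376, 1549, 1853 and 2069 at E16 and 837, 790 and 364 at E18 (log2 change -1.64, SE 0.39, adjusted p = 0.26), with pair changes of -1.63 and -1.65. Its stage means were 3477 at E9.5, 3256 at E12, 2943 at E14 and 572 at P0. Sox4, a transcription factor of progenitors, read 650, 593, 308.5 and 1132 at E16 and 1794, 1754 and 1592 at E18 (log2 change 1.5, SE 0.44, adjusted p = 0.44), while its second probe set overlapped between stages (log2 change 0.95). The inducible heat shock genes Hspa1a and Hspa1b differed more than 3-fold among the E16 arrays themselves (783 to 2981 and 556 to 1928) and were 3902 to 5566 and 2334 to 3715 at E18 (adjusted p = 0.64 and 0.71).

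**Figure D3:**
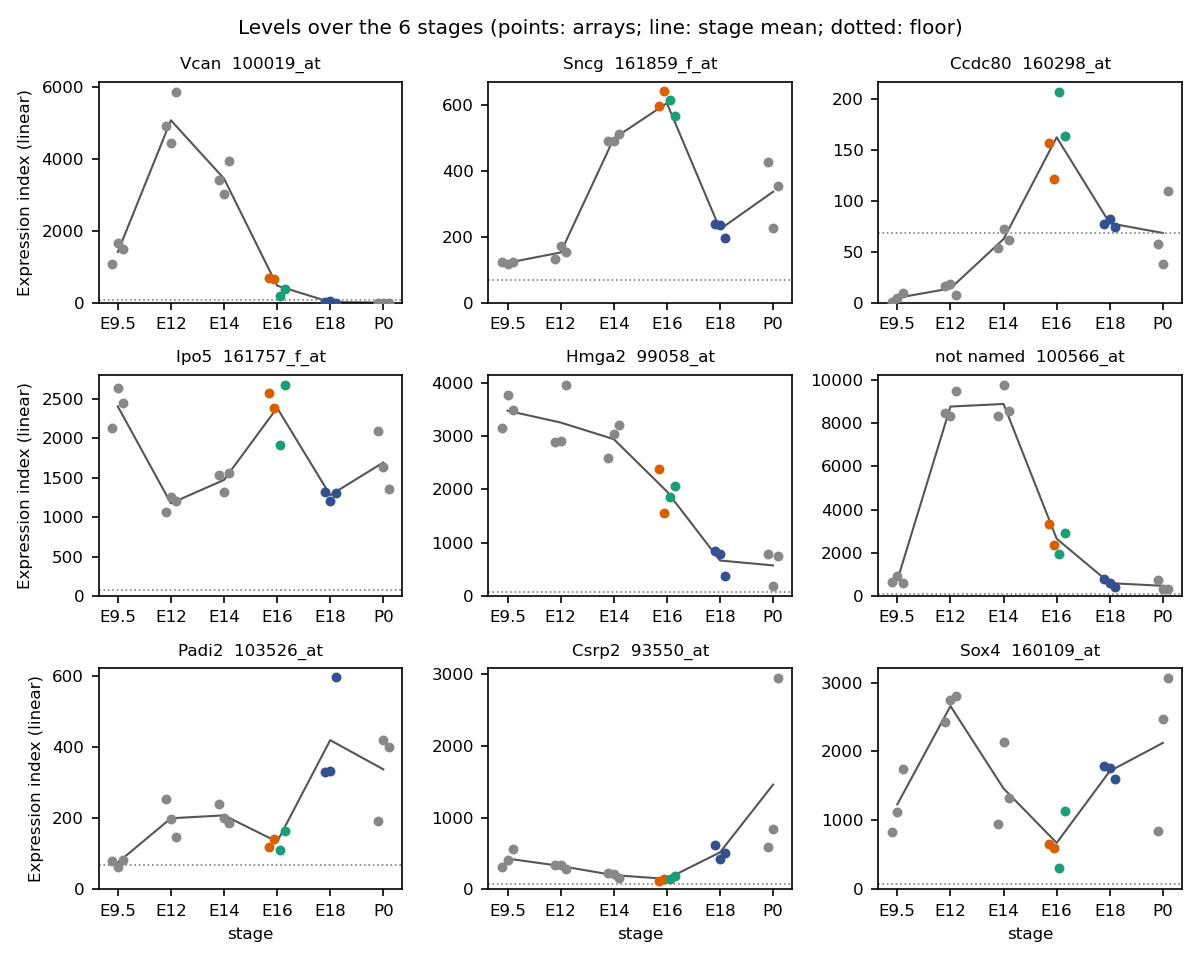
Expression index (linear) over the 6 stages for 9 probe sets, with points for arrays (E16 replicates 1 and 2 orange, replicates 3 and 4 green, E18 blue, other stages grey), a line through stage means and the floor dotted. Vcan, Hmga2 and 100566_at decline from E14 through E18, Sncg and Ccdc80 peak at E16, and Padi2 and Csrp2 have a lower mean at E16 than at E14 and E18.

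Lists of genes with known roles in nerve development were read by their counts and medians beside all 7414 genes tested with 1 probe set each. Of those genes 5 were called (0.0674%). At an unadjusted p under 0.05 there were 606 (8.17%), 204 higher (2.75%) and 402 lower (5.42%). On 222 (2.99%) all E18 arrays exceeded all E16 arrays and on 352 (4.75%) all were below. Against E16 replicates 1 and 2, 43 genes were called higher (0.58%) and 55 lower (0.742%). In size, 1436 were higher by over 0.05 on the log2 scale against both pairs (19.4%) and 1707 lower (23%). Of all 7414, 3520 had a positive and 3869 a negative change. Their median log2 change was -0.01, or 0.07 against E16 replicates 1 and 2 and -0.09 against replicates 3 and 4. Vcan was the single gene called by limma among 496 genes of 27 lists. Of the 496, 26 were higher (5.24%) and 31 lower (6.25%) at an unadjusted p under 0.05.

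The transcription factors that promote myelination had a median log2 change of 0.16 over 11 measured genes, or 0.37 and -0.08 against the pairs, with 2 higher and 1 lower at an unadjusted p under 0.05. Pou3f1, the factor of promyelinating Schwann cells also called Oct6, read 59.4, 51.6, 116 and 293 at E16 and 590, 651 and 338 at E18. Every E18 array exceeded every E16 array. With 2 E16 arrays set to the floor the log2 change was 2.17 (SE 0.56), the largest upward change of the 7414 genes, but its adjusted p was 0.38. It was called against E16 replicates 1 and 2 (2.88, adjusted p = 0.033) and not against replicates 3 and 4 (1.46). Its mean was 123 at E14 and 986 ± 971 (SD, n = 3) at P0. Pou3f2, a related POU factor, read 134 to 151 at E16 and 171 to 180 at E18 (log2 change 0.32, adjusted p = 0.56). Egr2, the master regulator of myelin genes, read 1683, 3353, 4419 and 4185 at E16 and 4213, 5061 and 3797 at E18 (log2 change 0.44, SE 0.35, adjusted p = 0.77), with the low value in E16 replicate 1. Sox10 had a log2 change of 0.61 with overlapping stages. Nab1, a cofactor of the Egr proteins, read 822 to 1042 at E16 and 502 to 636 at E18 (log2 change -0.67, SE 0.15, adjusted p = 0.25), with similar changes against both pairs (-0.57 and -0.77).

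The factors that oppose myelination had a median of 0.29 over 14 genes, or 0.49 and 0.01 against the pairs. Of them 2 were higher and 2 lower at an unadjusted p under 0.05. Hmga2 (log2 change -1.64) and Sox4 (0.95 on the probe set used for the list), both described above, belong to this list. Sox2, which holds Schwann cells in an immature state, read 1616, 2385, 3051 and 2775 at E16 and 3586, 4425 and 4543 at E18 (log2 change 0.80, SE 0.25, adjusted p = 0.45). Jun (0.30) and Id2 (0.54) overlapped between stages. Sox11, a transcription factor of progenitors, read 3020 and 2293 in E16 replicates 1 and 2, 621 and 352 in replicates 3 and 4, and 148 to 405 at E18 (log2 change -2.11, SE 0.90, adjusted p = 0.56), so its change was -3.35 against the first pair and -0.86 against the second.

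Genes of the myelin membrane had a median of 0.03 over 9 genes, or 0.25 and 0.06 against the pairs. Mbp, myelin basic protein, read 1962, 2174, 2926 and 3940 at E16 and 4382, 3672 and 4033 at E18 (log2 change 0.60, SE 0.23, unadjusted p = 0.02, adjusted p = 0.52). Its change was 0.96 against replicates 1 and 2 and 0.24 against replicates 3 and 4, and its level had risen from 191 at E12 and 943 at E14 to 2751 at E16. Cd9, a tetraspanin of the Schwann cell surface, read 2349 to 2454 at E16 and 3225 to 3781 at E18 without overlap (log2 change 0.51, SE 0.26, adjusted p = 0.63). Pmp22 had a log2 change of 0.28, Mag, an adhesion protein of the innermost wrap, one of 0.22 (its dimmer probe set -0.19), and Mal, a raft protein of myelin, one of -0.14 with 1482 to 4180 at E16. Among 11 genes of myelin upkeep and axon contact (median 0.08, or 0.66 and -0.20), Cryab, a small heat shock protein of myelinating cells, read 394, 613, 949 and 1178 at E16 and 1317, 1544 and 1795 at E18 (log2 change 1.10, SE 0.40, adjusted p = 0.48).

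The E16 pairs also parted on the lipid synthesis lists, with a median log2 difference between them of 0.58 for cholesterol and 0.72 for fatty acid genes, beside 0.82 for myelin upkeep, 0.65 for DNA replication and 0.17 for all genes. Cholesterol synthesis and uptake had a median of -0.01 over 16 genes, composed of 0.31 against E16 replicates 1 and 2 and -0.20 against replicates 3 and 4. Fatty acid and sphingolipid synthesis had 0.05, composed of 0.31 and -0.26. Hmgcs1, an early enzyme of the cholesterol pathway, read 1005 and 816.5 in E16 replicates 1 and 2, 3044 and 1910 in replicates 3 and 4 and 1828 to 2052 at E18. Idi1, an isomerase of the same pathway, read 634 and 558, then 1560 and 1700, and 1517 to 1636 at E18. On both genes the E18 arrays lie at the level of E16 replicates 3 and 4 or between the pairs. No gene of the fatty acid list had an unadjusted p under 0.05, and 1 of the cholesterol list had, Mvd (log2 change -0.40, adjusted p = 0.57).

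**Figure D4:**
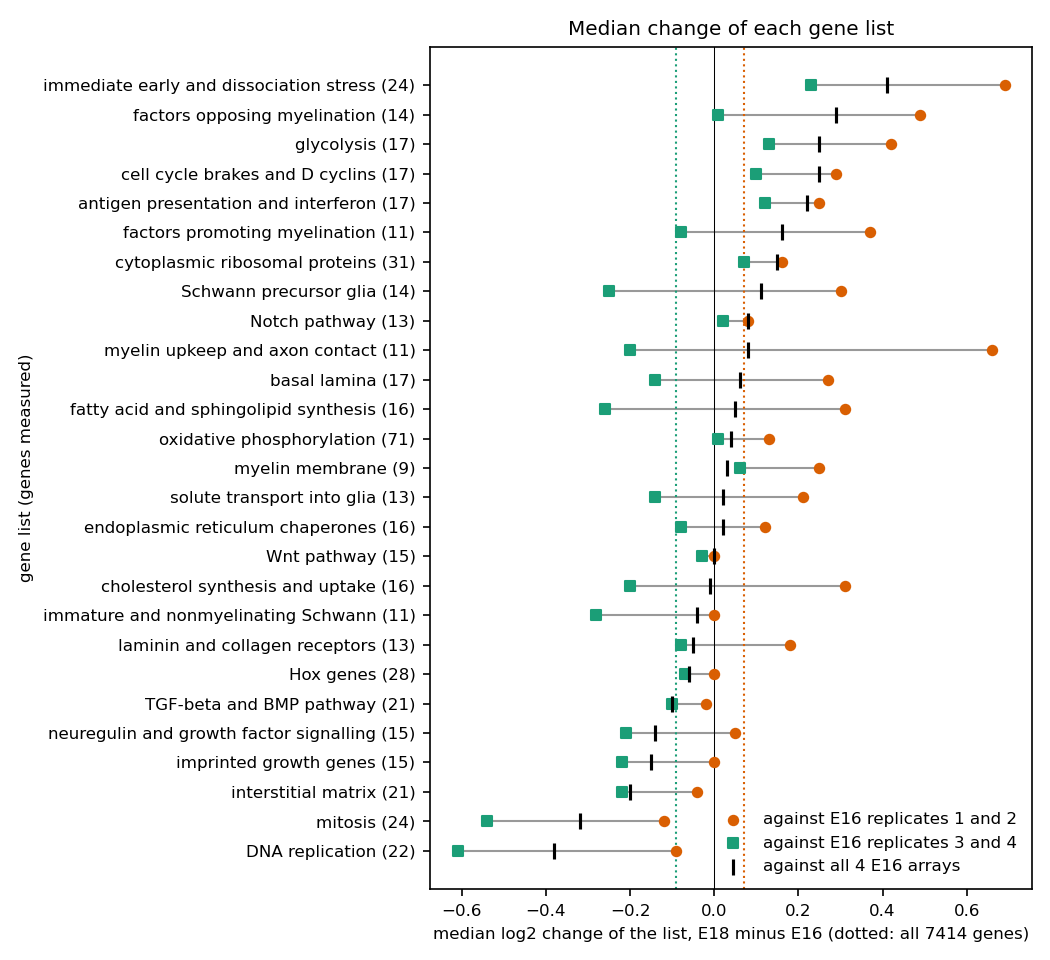
Median log2 change of E18 minus E16 for each of 27 gene lists against E16 replicates 1 and 2 (orange), replicates 3 and 4 (green) and all 4 arrays (black), with the medians of all 7414 genes dotted. Myelin upkeep, cholesterol and fatty acid genes have medians of opposite sign against the pairs, as do several other lists and all 7414 genes. DNA replication and mitosis are below 0 and stress, glycolysis and interferon genes above 0 against both.

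Genes of Schwann cell precursors had a median of 0.11 over 14 genes (0.30 and -0.25 against the pairs), with 3 lower and 0 higher at an unadjusted p under 0.05. Fabp7, a fatty acid binding protein of early glia, read 1460, 547, 937 and 1137 at E16 and 422, 577 and 439 at E18 (log2 change -1.02, SE 0.39, adjusted p = 0.51). Gfra3, the receptor subunit for artemin, read 983, 746, 759 and 965 at E16 and 381, 471 and 750 at E18 (log2 change -0.74, SE 0.21, adjusted p = 0.42), with E18 replicate 3 inside the E16 range. Gap43, a growth-associated membrane protein, differed by -0.58 (adjusted p = 0.52). Erbb3, Ncam1 and Dhh, the hedgehog signal of Schwann cells, had log2 changes of 0.17, 0.24 and -0.02. The 11 genes of immature and nonmyelinating Schwann cells had a median of -0.04, and the 15 of neuregulin and growth factor signalling -0.14. In the latter Pdgfa, a growth factor, differed by -0.34 (adjusted p = 0.60). Igf2 read 6960 on E16 replicate 2, the array that also stood out in Dcn, and 388 to 2488 on the other 6.

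The 17 basal lamina genes had a median of 0.06 (0.27 and -0.14 against the pairs). Lama2, a laminin chain whose loss impairs peripheral myelination, read 4408 to 6716 at E16 and 5830 to 7215 at E18 (log2 change 0.23), and Col4a1 differed by 0.06. Col18a1, a collagen that carries heparan sulfate chains, was the exception without overlap, with 3332, 2961, 3128 and 4516 at E16 and 2242, 1823 and 1728 at E18 (log2 change -0.84, SE 0.19, unadjusted p = 0.00033, adjusted p = 0.23) and pair changes of -0.71 and -0.97. Of its other 4 probe sets, 2 gave -0.85 and -0.95 without overlap and 2 overlapped between stages. Among 13 laminin and collagen receptors the median was -0.05. Itga6 and Itgb1, subunits of a laminin receptor, differed by 0.50 and 0.14 with overlapping arrays, and Itga3 by -0.66 (adjusted p = 0.52). The 21 interstitial matrix genes had a median of -0.20, with Vcan called and 4 in all lower at an unadjusted p under 0.05. Besides Vcan these were Col6a1 (-0.94), Fn1 (-0.97) and Loxl1 (at least 1.60-fold lower, adjusted p = 0.43). The fibrillar collagens Col1a1, Col1a2 and Col3a1 differed by -0.14, -0.12 and 0.13, although a dimmer probe set of Col3a1 gave 1.04 without overlap (adjusted p = 0.38). The median was -0.03 without E18 replicate 3.

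The DNA replication and mitosis lists had medians below that of all genes, and the arrays contributed unequally. Of 22 DNA replication genes 21 had a negative log2 change (median -0.38, or -0.09 and -0.61 against the pairs) and 4 had an unadjusted p under 0.05. Cdc6, which loads the replicative helicase, read 293, 209, 509 and 238 at E16 and 177, 169 and 114 at E18 (log2 change -0.96, SE 0.31, adjusted p = 0.46), and Rfc5, a clamp loader subunit, 478 to 675 and 346.5 to 446 (log2 change -0.50, SE 0.16, adjusted p = 0.45). Pcna, the sliding clamp, read 3184 to 3447 and 3096 to 3221 (log2 change -0.06). Of 24 mitosis genes 22 had a negative change (median -0.32, or -0.12 and -0.54) and 3 had an unadjusted p under 0.05, Cenpa, a centromere histone, among them (697 to 879 at E16, 350 to 625 at E18, log2 change -0.60, adjusted p = 0.45). E18 replicate 3 was the low array: the summed mitosis level was 11692 on it, 20593 and 21414 on the other E18 arrays and 18032 to 26751 at E16. The summed DNA replication level was 10794 on that array, 12514 and 11556 on the other E18 arrays and 12873 to 17026 at E16. The DNA replication sum parted the stages, and the mitosis sum did not. Parting was not particular to DNA replication. The sum of cell cycle brakes and D cyclins was at most 16542 at E16 and at least 18452 at E18. Sums of the TGF-beta and BMP list and of the Hox list, given below, parted the stages too. How often sums part by chance was not tested. Without E18 replicate 3 the mitosis median was -0.03, and the DNA replication median was -0.32. Without E16 replicate 3 the mitosis median was -0.15. Within lot 1 the medians were 0.09 for mitosis and 0.02 for DNA replication, and within lot 3 they were -1.35 and -0.85.

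**Figure D5:**
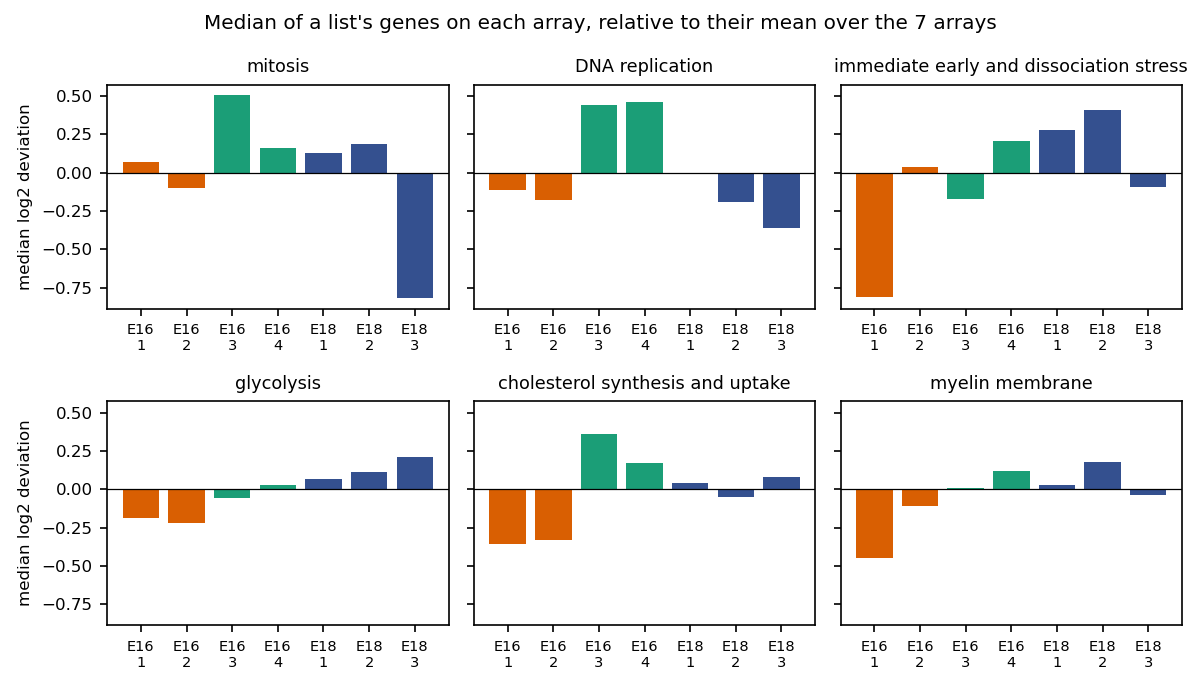
Median log2 deviation of a list's genes on each array from their mean over the 7 arrays, for 6 lists; orange and green bars are the E16 pairs and blue bars E18. E18 replicate 3 is lowest for mitosis (-0.82), E16 replicate 1 is lowest for stress genes (-0.81), and E16 replicates 1 and 2 are below replicates 3 and 4 for cholesterol genes.

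Cell cycle brakes and D cyclins had a median of 0.25 over 17 genes, with 3 higher and 2 lower at an unadjusted p under 0.05. Cdkn1c, a cyclin-dependent kinase inhibitor from an imprinted locus, read 1887, 5616, 2536 and 3665 at E16 and 6898, 6745 and 5753 at E18 (log2 change 1.03, SE 0.28, adjusted p = 0.42). The stages did not overlap and the pair changes were 0.99 and 1.08, but E16 was low between 5839 at E14 and 6842 at P0. Btg1, an antiproliferative factor, differed by 0.61 and Rb1, the retinoblastoma gene, by 0.83 (adjusted p = 0.46 and 0.50). Among 15 imprinted growth genes (median -0.15) Mest, a gene of fetal growth, read 1525, 1771, 1419 and 1172 at E16 and 627, 639 and 360 at E18 (log2 change -1.47, SE 0.35, adjusted p = 0.26), with 3842 at E14 and 353 at P0.

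The stress and glycolysis lists had medians above that of all genes. Of 24 immediate early and dissociation stress genes 22 had a positive change (median 0.41, or 0.69 and 0.23 against the pairs), yet 2 had an unadjusted p under 0.05 and 0 a lower one. E16 replicate 1 was low on many of them, and without it the median was 0.14. Fos read 6950 to 8026 at E16 and 6257 to 8914 at E18 (log2 change 0.01). Ddit3, a stress transcription factor listed with the endoplasmic reticulum chaperones (16 genes, median 0.02), read 67.0, 121, 146 and 174 at E16 and 232, 247 and 526 at E18 (log2 change 1.37, SE 0.44, adjusted p = 0.46). The 17 glycolysis genes had a median of 0.25, or 0.42 and 0.13, with 14 positive. Hk1, the first enzyme of glycolysis, read 44.0, 62.1, 42.3 and 132 at E16 and 203, 202 and 283 at E18 (at least 2.81-fold higher, SE of the log2 change 0.49, adjusted p = 0.46), and Ldha differed by 0.24. The 71 oxidative phosphorylation genes had a median of 0.04, where Cox4i1, a subunit of cytochrome oxidase, read 271 to 388 at E16 and 628 to 913 at E18 (log2 change 1.14, SE 0.30, adjusted p = 0.38) on its brighter probe set and overlapped on the other (-0.14). The most abundant member, the ATP synthase subunit Atp5md, had a log2 change of -0.26. Medians were 0.15 for 31 ribosomal protein genes and 0.22 for 17 genes of antigen presentation and interferon response, where Irf9 read 249 to 394 and 459 to 531 (log2 change 0.58, adjusted p = 0.47).

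Signalling and positional lists had medians close to that of all genes (-0.01). The medians were 0.08 for 13 Notch pathway genes, -0.10 for 21 TGF-beta and BMP pathway genes, 0 for 15 Wnt pathway genes, 0.02 for 13 transporter genes and -0.06 for 28 Hox genes. Summed levels nevertheless parted the stages on the TGF-beta and BMP list (4361 to 4963 at E16, 3844 to 4215 at E18). They also did on the Hox list (7927 to 8990 at E16, 7389 to 7874 at E18). Fzd3, a Wnt receptor, read 1217, 945, 967 and 818 at E16 and 508, 470 and 517 at E18 (log2 change -0.97, SE 0.24, unadjusted p = 0.00084, adjusted p = 0.28), with pair changes of -1.11 and -0.84, while its dimmer probe set overlapped (-0.23). Fzd2, another Wnt receptor, differed by -0.58 (adjusted p = 0.57). Smad7, an inhibitor of TGF-beta signalling, differed by -0.58 (adjusted p = 0.56). Hoxa5 read 313, 240, 245 and 133 at E16 and 105, 128.5 and 94.7 at E18 (log2 change -1.03, SE 0.32, adjusted p = 0.45). Notch1 and Hes1 differed by 0.16 and 0.36 with overlapping stages.

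Among 101 genes of 11 marker lists limma called 0, with 5 higher (4.95%) and 6 lower (5.94%) at an unadjusted p under 0.05. The 13 skeletal muscle markers went both ways, with a median log2 change of 0.01 (from -0.55 to 0.98), 7 higher and 6 lower. At an unadjusted p under 0.05, 3 were higher and 2 lower (limma). Among the risers Actc1 read 933 to 1649 at E16 and 1745 to 2467 at E18 (log2 change 0.71, adjusted p = 0.58). The summed level of the muscle markers overlapped, with 3491 to 4955 at E16 and 4614 to 6064 at E18. The part of muscle and other marker genes in the results above was not tested.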

How the data were processed

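Sorted glial cells of 6 stages were measured on 19 Affymetrix arrays. Per the labels, the authors scanned them with MAS 5.0, normalized with dChip (smoothing spline), took probe sensitivities from 18 arrays and deposited model-based expression indices in units of linear intensity; no version of dChip is stated in the labels. Amplification by 2 rounds of in vitro transcription shortens RNA, so that probe sets far from the 3' end may read low. No value column was left out (0), and 0 array pairs were identical.

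Of 12488 probe sets 66 controls were dropped. Of the rest, 10833 carry 1 gene symbol in the array annotation, 396 several and 1193 none, and only the first are named by gene. Values under the 25th percentile (68.5) were raised to that floor before log2. A probe set had to exceed the floor on at least 3 arrays, which left 10414 to test. The limma 3.58.1 fit (lmFit, eBayes; R 4.3.3) took all 19 arrays with a mean per stage (13 residual degrees of freedom); a second fit split E16 into its pairs. P-values are 2-sided, adjusted by Benjamini-Hochberg over all tested, threshold 0.05. The scripts were tested on simulated data. "At least" marks folds whose lower stage has an array at the floor. The number of arrays limits the precision.

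Up to 15 named genes per direction were to have 1 symbol, a call, no overlap of stages and 1 sign against both pairs. They were ranked by the smaller pair change and filled to 5 with genes that miss the test. Called or most abundant members of each list and others needed for their role were added. So were up to 4 genes per direction that differ between the pairs and have E18 called against only 1 pair. Members, lists and this rule were chosen with earlier results of these data known. Alternatives were the floor, filter, quantile normalization, the 7 arrays alone, trend with robust fitting, array weights, lot or replicate number as a block, the GAPDH signal, single arrays and either E16 pair left out, and values within lots.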

Additional observations from a re-analysis of the deposited data

Results flagged for a closer look

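The difference between the E16 pairs was tested for every probe set, and 11 passed (limma, adjusted p under 0.05), which means that the change to E18 differs by which E16 arrays stand for E16. Replicates 3 and 4 minus replicates 1 and 2, in log2, gave 2.53 for Mknk2, 2.09 for Frmd6, 1.28 for Slu7, 0.95 for Cttn and 0.83 for Sema3c, a guidance signal. It gave -3.42 for the unnamed probe set 97487_at, -3.23 for the unnamed 101743_f_at, -2.51 for Tbxas1, thromboxane synthase, -2.18 for Tes, -1.41 for Gpr132 and -1.41 for S100a4, a calcium-binding protein. Tbxas1 read 1658 and 1589 in E16 replicates 1 and 2, 210 and 385 in replicates 3 and 4, and 403, 473 and 820 at E18. S100a4 read 827 and 634, then 321 and 231, and 367 to 468 at E18. Sema3c read 74.2 and 61.4, then 130 and 124, and 23.4 to 57.6 at E18. A lone E16 array far from the other E16 arrays was looked for on 87 probe sets of the genes reported (Dixon's gap test on floored log2 values), where chance gives about 1 in 20, and 1 passed. It was Hk1, at 132 on E16 replicate 4. The other E16 arrays were all set to the floor, so that any value above it would pass, and the test is void for this gene.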

How the results depend on the processing

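With 3 and 4 arrays per stage the median SE was 0.23, and the smallest change called was 0.89 on the log2 scale. Values under the floor limit 3 of the 8 called probe sets to bounds. A stage with all arrays under the floor adds no spread to the pooled SE, which can make the SE too small. The count of 8 (1 higher, 7 lower) became 3 with the floor at the 40th percentile (0 higher, 3 lower), 2 with only the E16 and E18 arrays (0 higher, 2 lower) and 1153 with array weights (532 higher, 621 lower). With the lot as a block it was 5 (1 higher, 4 lower), where Padi2, Ccdc80, Ipo5 and 103926_at were lost, so the 1 higher is another probe set. Replicate numbers do not pair the samples: arrays of the same number had correlations of deviations of -0.124, 0.027 and -0.223 over probe sets, and with the replicate block 5 were called (1 higher, 4 lower), without the same 4. With E16 replicates 1 and 2 alone 105 were called (49 higher, 56 lower), and with replicates 3 and 4 alone 8 (0 higher). Leaving out 1 array gave 4 to 11 (0 to 3 higher, 4 to 8 lower). None was higher without the filter or with the GAPDH covariate (0 each), and 4 were under quantile normalization. Against E16 replicates 1 and 2 the 146 became 28 without the filter, 489 with only the 7 arrays, 2133 with array weights, 4 with the GAPDH covariate and 11 to 19 without 1 E18 array. Against replicates 3 and 4 the 8 became 4 with the 40th percentile floor, 5 under quantile normalization, 0 with only the 7 arrays, 5 with array weights and 3 to 6 without 1 E18 array. Against both pairs the 5 became 3 with that floor, without the filter and with array weights, 0 with only the 7 arrays, 2 with the GAPDH covariate and 2 to 4 without 1 E18 array. Between the pairs the 11 became 38 and 22 with the 10th and 40th percentile floors, 10 without the filter, 21 under quantile normalization, 442 with only the 7 arrays, 30 with trend and robust fitting, 15 with array weights, 2 with the GAPDH covariate and 6 to 20 without 1 E18 array. With E16 replicates 3 and 4 alone the changes of Frmd6 (-0.55) and Slu7 (-0.34) reversed. The other moves were not traced to a cause: the cause was not tested.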
